A study of Mus musculus with 4 samples.

Results

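The splicing factors and RNA-binding regulators described here are the mouse genes whose symbols begin with Srsf, Srrm, Hnrnp, Rbm and a digit, Prpf, Sf3a or Sf3b, Snrnp, U2af, Luc7l, Clk and a digit, Tra2, Mbnl, Celf, Tia1 or Tial1. Rbm15 and Rbm15b were left out. Of 6660 genes with at least 1 listed N6-methyladenosine (m6A) site in mouse heart, 65 fitted this rule, 53 of them in the knockout list and 59 in the wild-type list. They carried 128 of the 10388 sites of the knockout list and 138 of the 10814 sites of the wild-type list. The rule used names and no measured value.

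Hearts came from Abro1 knockout mice and from wild-type mice, both on the C57BL/6 strain background. Abro1 encodes a scaffold protein of a deubiquitinating complex that removes lysine-63-linked ubiquitin chains. RNA was analysed by methylated RNA immunoprecipitation sequencing, in which fragments bound by an antibody against m6A are sequenced, together with an input library to which no antibody was applied. Each genotype had 1 immunoprecipitate and 1 input library, from which 1 list of sites was made. The age, sex and number of animals, how the knockout was made, and whether it removed Abro1 from every cell are not given in the labels. Neither list had a site in Abro1, now called Abraxas2, so the labels could not be checked on the targeted gene. With 1 list per genotype no test between genotypes was possible, and the spread between animals is unknown.

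Splicing removes introns from pre-mRNA. The U1 and U2 small nuclear ribonucleoproteins (snRNPs) mark the 5′ splice site and the branch point, and the U4/U6.U5 tri-snRNP then joins to form the catalytic spliceosome. SR proteins generally favour exon inclusion, many hnRNP proteins oppose it, and CLK kinases phosphorylate SR proteins. In heart muscle, RBM20, RBM24, MBNL and CELF proteins set the splice forms of sarcomere and calcium-handling genes. Many mRNAs for splicing factors are themselves alternatively spliced, often through exons that send the mRNA to decay. m6A is placed on nascent RNA by the METTL3 and METTL14 methyltransferase, preferentially within the consensus DRACH, and is commonly dense in long internal exons and around stop codons. Proteins of the hnRNP group, among them HNRNPC and HNRNPA2B1, have been described as readers of m6A.

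Among the splicing factor genes, 25 had a RefSeq start whose first 30 bases lay wholly inside a listed site on the same strand. A start, here and below, is that of a RefSeq window and can lie inside the gene span. The Srrm2 site that covers such a start has its midpoint at 37.3% of the span. For 14 of the 25 genes the start was covered in both lists, for 4 in the knockout list only and for 7 in the wild-type list only. Over all covered RefSeq windows, 61.8% were covered in both lists, 19.5% in the knockout list only and 18.7% in that of the wild type only. These bases are shown for 9 genes. The choice includes the strongest site of the whole group, both starts with the searched m6A-type motif and starts covered in 1 list only. Capitals mark that motif, which is GAC or AAC with a purine before it and any base but G after it. These 12 forms of 5 letters leave out the forms of DRACH that begin with U. The 12 forms were searched on the RNA strand only. Positions are in mm10 and the sequences come from RefSeq windows on GRCm38.p6, the same assembly.
Tia1, chr6:86404219-86404248, plus strand, start covered in both lists: ggagggtgagcatgctagctggctgtgcgc
Prpf4b, chr13:34875529-34875558, plus strand, both lists: gagtgccgcttttctctacgtgctccgcac
Hnrnpd, chr5:99978909-99978938, minus strand, both lists: ccattttaggtggtccgcggcggcgccatt
Mbnl2, chr14:120275669-120275698, plus strand, both lists: gtgggaaggaagggctgcagctcacagcaa
Rbm17, chr2:11603170-11603199, minus strand, both lists: cgtggaggctcggcgctgcggcGGACTccg
Hnrnpr, chr4:136311598-136311627, plus strand, both lists: cAAACTtttacgggagtcggagccgagggg
Srsf9, chr5:115327177-115327206, plus strand, knockout list only: gcggctgagcgcctcgggagcccgcggggg
Rbm24, chr13:46418300-46418329, plus strand, wild-type list only: agagccccagccaggcgacccagcgcccgc
Srsf7, chr17:80207276-80207305, minus strand, wild-type list only: gtagtgccgccgggattgcaggcagaggag

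Rbm17 and Hnrnpr were the 2 of 26 covered windows (7.69%, exact 95% interval 0.946 to 25.1) that held the motif in these 30 bases. Over all genes, 18.5% of the 1967 windows with a covered start and 29.5% of all 32851 RefSeq windows held it. Among all 147 windows of splicing factor genes, covered or not, 21 held it (14.3%). An A stood at the first base in 3 of the 26 windows (11.5%), among them Rbm24. It did so in 27.9% of all covered windows and in 25.2% of the 147 windows of splicing factor genes. The anti-m6A antibody also binds N6,2′-O-dimethyladenosine, a cap-adjacent mark that needs A as the first transcribed base. How far the annotated starts are the starts used in these hearts was not tested.

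Most of the genes were in both lists. Of the 65 genes, 47 had a site in both lists (72.3%, exact interval 59.8 to 82.7). Another 6 were in the knockout list only (9.23%, 3.46 to 19.0), against 11.6% of all 6660 genes. The 12 in the wild-type list only made up 18.5% (9.92 to 30.03), against 14.0% of all genes. Both shares had intervals that include the value over all genes. These intervals, here and below, cover counting error only.

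RefSeq holds 124 protein-coding genes that fit the naming rule, of which 65 carried a site (52.4%, exact interval 43.3 to 61.5), against 28.2% of all 21900 protein-coding genes. The lists give no expression, so how far this share follows from the level of the mRNAs in heart was not tested. The genes with a site were counted by group, without a test between groups. A site was present in 22 of 35 snRNP and branch point core genes, in 20 of 36 RBM genes and in 11 of 21 hnRNP genes. SR proteins had a site in 4 of 13 genes, and the MBNL and CELF group in 2 of 9. Among the 59 genes with no site in either list were Srsf1, Srsf2, Srsf3, Srsf5, Srsf6, Srsf10, Tra2b, Sf3b1, Prpf8, U2af1, Hnrnpa1, Hnrnpa2b1, Hnrnpc, Clk1, Mbnl1, Celf1 and Celf2. A gene with no listed site is not shown to lack m6A, since depth is unknown.

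**Figure D1:**
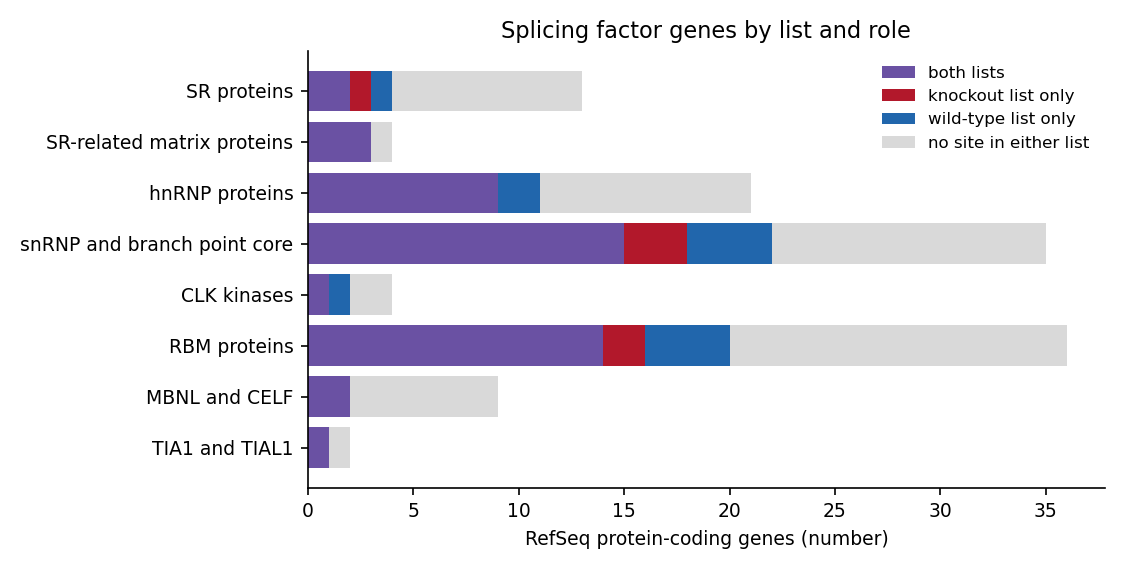
Number of RefSeq protein-coding genes in each role group (horizontal axis), coloured by whether a gene had sites in both lists, only in that of the knockout, only in that of the wild type, or in neither. The snRNP and branch point core group had 15 genes in both lists, 3 in the knockout list only and 4 in the wild-type list only, whereas 9 of 13 SR protein genes had no site.

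Sites with no counterpart in the other list, counting any overlap of 1 bp on the same strand, were 23 of 128 in the knockout list (17.97%, 11.7 to 25.7), against 19.6% of all its sites. In the wild-type list they were 32 of 138 (23.2%, 16.4 to 31.1), against 22.8% of all its sites. Both shares lay near the background. Of the 47 genes in both lists, 24 had a counterpart for every site, 21 lacked one for some sites, and Rbm8a and U2af2 had no overlapping pair at all. The same number of sites in both lists was found for 30 of the 47 genes (63.8%), against 69.6% of the 4955 genes in both lists.

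Unmatched sites were mostly those with a low deposited score, the peak caller's p on a minus log10 scale, multiplied by 10. Below the median score of its list, 34.0% of the knockout sites of splicing factors and 46.2% of the wild-type sites had no counterpart, against 35.1% and 39.8% of all sites. Above the median these shares were 8.64% and 9.30%, against 4.12% and 5.75% of all sites. At 3100, the score most often found, or above it, the exceptions can be named. In the knockout list 2 of 18 such sites had no counterpart (11.1%, 1.38 to 34.7), in Luc7l3 and Rbm39, against 1.87% of all such sites. In the wild-type list 3 of 20 had none (15.0%, 3.21 to 37.9), in Hnrnpk, Prpf38b and Rbm20, against 2.32%. The 5 sites were named after their values were seen.

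Fold enrichment, the deposited linear ratio of immunoprecipitate over input at a site, had a median of 8.85 (95% interval 7.72 to 10.9) over the splicing factor sites of the knockout list and of 9.42 (8.39 to 10.7) over those of the wild-type list. Over all sites the medians were 7.96 and 9.35. Scores of splicing factor sites were higher than over all sites, with medians of 548 in the knockout list and 496 in the wild-type list, against 270.1 and 266. Their sites were also shorter, with median lengths of 192 bp in the knockout list and 204 bp in the wild-type list, against 364 and 394 bp over all sites. Sites under 200 bp made up 52.3% in the knockout list and 49.3% in the wild-type list, against 33.8% and 32.6%.

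Because the edges of many sites were the same in both lists, their folds can be set side by side. This held for 90 splicing factor sites, which is 70.3% of those in the knockout list and 65.2% of those in the wild-type list. Over all genes 5904 sites had equal edges, 56.8% of the knockout list and 54.6% of the wild-type list. The median ratio of knockout fold to wild-type fold was 0.818 over the 90 sites and 0.831 over all 5904, so the lists were offset as a whole. The knockout fold was the higher one at 15 of the 90 sites, against 1617 of all 5904. The knockout fold was at least 1.5 times the wild-type fold at 2 of the 90 sites (2.22%, 0.270 to 7.80), against 4.93% of all such sites. The reverse, a wild-type fold at least 1.5 times the knockout fold, was found at 16 sites (17.8%, 10.5 to 27.3), against 22.4%. The knockout sites above the line were a site in Rbm27 with 12.2 in the knockout list and 7.21 in the wild-type list, and one in Snrnp35 with 11.2 in the knockout list and 7.10 in the wild-type list. The lowest ratio belonged to Srsf4. Each fold belongs to its own list, without an error, so no change of methylation is read from these pairs.

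**Figure D2:**
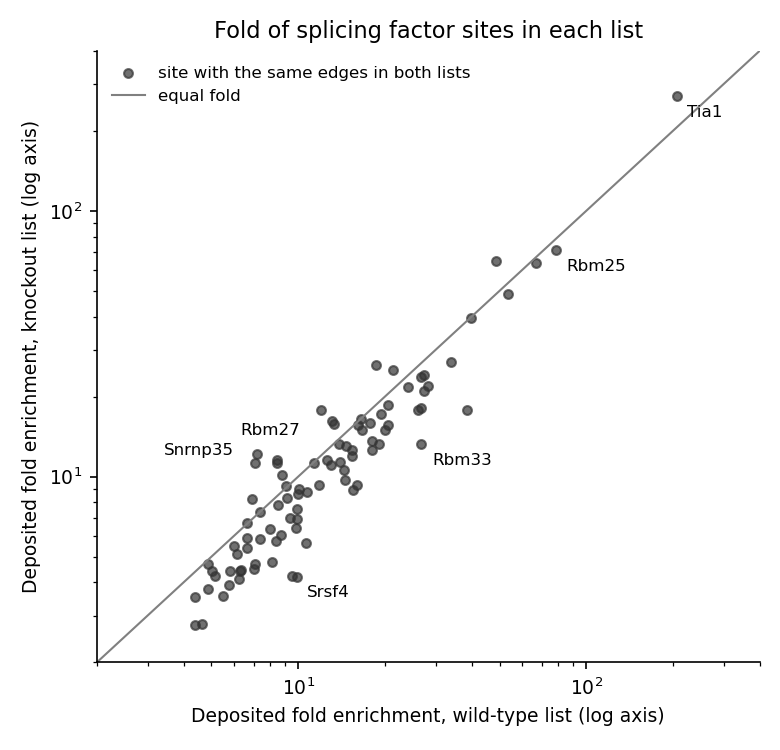
Deposited fold enrichment in the knockout list (vertical, log axis) against that in the wild-type list (horizontal, log axis) for the 90 splicing factor sites with the same edges in both lists; the line marks equal folds. The knockout fold was lower at 75 sites and higher at 15, and Tia1 stood alone at the top with 269 in the knockout list and 206 in the wild-type list.

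SR proteins carried few sites, 6 in the knockout list and 5 in the wild-type list, and most of these were in Srsf11. Srsf11, an SR-related protein also called p54, had 4 sites in the knockout list and 3 in the wild-type list. Its strongest site, near the 3′ end of the gene (chr3:158011525-158012203 in the knockout list), had a fold of 19.3 in the knockout list and of 23.6 in the wild-type list, each with a score of 3100. Srsf4 had 1 site with equal edges (chr4:131897657-131897871), with a fold of 4.21 in the knockout list and 9.89 in the wild-type list. Its score was 161 in the knockout list and 145 in the wild-type list, below the median of either list. The genes found in 1 list only were both weak. Srsf9 had a site of fold 3.77 and score 77.3 at its start in the knockout list only. Srsf7, which acts in splicing and mRNA export, had a site of fold 4.99 and score 76.2 at its start in the wild-type list only.

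Of the 4 SR-related matrix protein genes, Srrm1, Srrm2 and Srrm4 were in both lists with equal numbers of sites, and Srrm3 had no site in either. Srrm1, a coactivator that bridges SR proteins and snRNPs, had 4 sites in each list. At its start (chr4:135353097-135353321) the fold was 4.23 in the knockout list and 9.50 in the wild-type list. The scores there were low, 86 in the knockout list and 73.5 in the wild-type list. Srrm2, a large scaffold of nuclear speckles, had 2 sites with equal edges in both lists. Its stronger one, at chr17:23803187-23803398, had a fold of 24.1 in the knockout list and 27.3 in the wild-type list. Srrm4 is known as a regulator of neuronal microexons. Its 1 site was among the longest of the group, 3005 bp in the knockout list and 3854 bp in the wild-type list. The fold was 3.98 in the knockout list and 8.48 in the wild-type list.

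Among hnRNP genes 9 were in both lists and 2, Hnrnpk and Hnrnpab, in the wild-type list only. Their sites numbered 22 in the knockout list and 27 in the wild-type list. Hnrnpd, also called AUF1, binds AU-rich mRNAs and steers their decay. Its 5 sites had the same edges in both lists. The strongest covered a RefSeq start of the gene (chr5:99978392-99978938, minus strand), with folds of 63.6 in the knockout list and 66.7 in the wild-type list.

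The Hnrnpd sites were short beyond the first, with lengths of 57, 132, 147 and 169 bp. The sites of 57, 132 and 147 bp have the lengths of 19, 44 and 49 codons, and the others are not whole numbers of codons. In human AUF1, alternative cassette exons of 19 and 49 codons are known to give the different protein isoforms. Whether the sites coincide with exons was not determined, as no exon annotation was used. The 57-bp site (chr5:99976534-99976590, minus strand) had a fold of 11.6 in the knockout list and 12.6 in the wild-type list. It is printed in full because a whole site could be read from a RefSeq window, that of Gm42127. That gene starts within the Hnrnpd span on the same strand. Capitals mark the 1 motif in the site.
Hnrnpd site of 57 bp: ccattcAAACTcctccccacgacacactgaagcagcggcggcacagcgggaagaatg
Of all RefSeq windows, 52.5% held at least 1 such motif in their first 57 bases. Those bases lie upstream of a start, so this share is not a matched background for the site.

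Hnrnpm, which binds GU-rich RNA, had 6 sites in the knockout list and 9 in the wild-type list. The strongest wild-type site, with a fold of 88.1, covered the gene start (chr17:33685267-33686860, minus strand). Most of this wild-type site lay upstream of the gene, with its midpoint at -1.54% of the span. A knockout site there overlapped it with a fold of 61.0 but was assigned to March2, and it lay wholly upstream of the RefSeq start of Hnrnpm. The other 2 additional wild-type sites were weak, with folds of 4.15 and 3.22. A short site of 54 bp at chr17:33652273-33652326 had a fold of 27.0 in the knockout list and 34.0 in the wild-type list.

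Hnrnpu, a nuclear scaffold protein needed for normal splicing in the mouse heart, had 1 site with equal edges (chr1:178336953-178337797), with a fold of 17.2 in the knockout list and 19.4 in the wild-type list. Both scores were 3100. Hnrnpul1 had 4 sites with equal edges in both lists, the strongest at 23.7 in the knockout list and 26.7 in the wild-type list. Hnrnpul2 had an additional knockout site, of fold 10.9 and score 1361 (chr19:8823530-8823669), which lay 2716 bp from the nearest same-strand wild-type site. Hnrnpa0 had a site over its whole RefSeq span of 2678 bp in the knockout list and over 1780 bp in the wild-type list. Hnrnpk, a KH-domain protein that binds C-rich RNA, had a wild-type site of 98 bp (chr13:58399893-58399990, minus strand) at a fold of 19.0 (score 3100) and no knockout site. Hnrnpab had a wild-type site at a fold of 10.2 (score 310.2).

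The snRNP and branch point core held 43 sites in the knockout list and 42 in the wild-type list. Prpf4b, a kinase that phosphorylates tri-snRNP proteins in human cells, had 6 sites in the knockout list and 5 in the wild-type list. The site at its start (chr13:34875494-34875694) had a fold of 65.0 in the knockout list and 48.4 in the wild-type list. The additional knockout site was weak, with a fold of 3.51. Prpf6, which bridges the parts of the tri-snRNP, had 5 sites in the knockout list and 3 in the wild-type list. The additional sites lay at the first and last bases of the gene span and had folds of 4.19 and 4.49, with scores of 78.0 and 89.0.

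Among U1-linked proteins, Snrnp70, the U1 70K protein, had 3 sites with equal edges. Its strongest (chr7:45376454-45377278, minus strand, near the 3′ end) had a fold of 48.7 in the knockout list and 53.5 in the wild-type list. Luc7l, Luc7l2 and Luc7l3 are mouse relatives of the yeast U1 protein Luc7. Luc7l2 had 4 sites in the knockout list and 3 in the wild-type list, with a highest fold of 21.8 in the knockout list and 24.0 in the wild-type list. Luc7l3 had 2 sites in each list, of which 1 was shared, with a fold of 25.1 in the knockout list and 21.3 in the wild-type list. Its other knockout site (chr11:94296884-94297167, minus strand) had a fold of 51.9 and a score of 3100, and lay 803 bp from the shared site. The other wild-type site lay elsewhere and had a fold of 5.70. Luc7l had a knockout site only, at a fold of 6.32 (score 202).

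Prpf39 and Prpf40b, relatives of yeast U1 proteins, were also in the knockout list only. The Prpf39 site had a fold of 7.72 and a score of 103, and the Prpf40b site a fold of 8.73 and a score of 157. Snrnp200, the helicase that unwinds U4 from U6, had 3 sites in the knockout list and 4 in the wild-type list, and its highest fold was 15.0 in the knockout list and 16.7 in the wild-type list. The additional wild-type site had a fold of 2.45.

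At the branch point, the SF3A and SF3B subunits of the U2 snRNP had sites whose folds lay below the median of all sites of their list. Sf3a2 was in both lists, with a shared site of fold 3.91 in the knockout list and 5.76 in the wild-type list and an additional wild-type site of fold 7.04. Sf3b2 and Sf3b5 each had 1 site with equal edges. The fold was 5.41 in the knockout list and 6.64 in the wild-type list for Sf3b2, and 5.75 in the knockout list and 8.39 in the wild-type list for Sf3b5. Sf3a1 had 2 sites and Sf3a3 had 1 in the wild-type list only, with folds of 4.18 and 3.90 for Sf3a1 and of 7.37 for Sf3a3, and scores of at most 94.1. U2af2, which binds the polypyrimidine tract, had 1 site per list at different places. Its knockout site (chr7:5066403-5066538) had a fold of 5.78 (score 273), and its wild-type site (chr7:5062143-5062336), 4066 bp away, had a fold of 10.3 (score 485). Snrnp40, a U5 protein, had a wild-type site only, with a fold of 9.15.

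Prpf38b, which carries a PRP38 domain, had the strongest site of the 18 genes found in 1 list. The wild-type site (chr3:108903646-108904762, minus strand, 1117 bp) had a fold of 94.2 and a score of 3100. No knockout site overlapped it on either strand, and the nearest knockout site on the same strand lay 76023 bp away in Stxbp3a. The lists number their sites in genome order with gaps, and 9 numbers were missing from the knockout list between the listed sites that flank this place. What the missing numbers stand for is not given. For the other strong unmatched sites, the list without the site lacked 14 numbers at the place of Rbm39, 5 at Hnrnpk, 3 at Rbm20 and 2 at Luc7l3, so sites called there but left out of the lists cannot be told apart from sites not called. At the place of the Rbm24 site the knockout list lacked no number. The wild-type list likewise lacked none at the unmatched knockout sites of Rbm20 and U2af2.

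The CLK kinases had few sites. Clk2 had a site with equal edges at its start, with a fold of 7.33 in the knockout list and 7.37 in the wild-type list, and an additional wild-type site of fold 5.93. Clk3 had a wild-type site only, at a fold of 4.52 (score 50.2).

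The RBM genes had 45 sites in the knockout list and 50 in the wild-type list. Rbm33, whose human protein binds m6A and recruits the demethylase ALKBH5, had the most sites of the group, 8 in the knockout list and 12 in the wild-type list. All 8 knockout sites had a wild-type counterpart with equal edges, and the knockout fold was lower at each of them. The ratio ran from 0.495, at the site with a fold of 13.3 in the knockout list and 26.8 in the wild-type list (chr5:28389503-28389817), to 0.961. Over all genes the knockout fold was lower at 4281 of 5904 sites with equal edges, with a median ratio of 0.831. The 8 sites belong to 1 gene and are not replicates. The 4 wild-type sites without a counterpart had folds of 6.83, 3.63, 7.64 and 7.43 and scores between 76.7 and 182.

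Rbm17, also known as SPF45, acts in 3′ splice site choice. It had 6 sites in the knockout list and 5 in the wild-type list, and all 5 wild-type sites had equal edges in the knockout list. At its start the fold was 17.8 in the knockout list and 38.4 in the wild-type list, whereas at chr2:11595331-11595428 it was 17.9 in the knockout list and 12.04 in the wild-type list. Sites of 1 gene thus differed in which list had the higher fold. Rbm26 and Rbm27 are paralogs that act in nuclear RNA decay in human cells. Rbm26 had 4 sites in the knockout list and 5 in the wild-type list. Rbm27 had 5 sites in each list, 4 of them shared.

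Rbm25, a splicing regulator that binds the exonic sequence of its targets, had 4 sites in each list. The strongest (chr12:83668092-83668308) had a fold of 71.2 in the knockout list and 78.3 in the wild-type list, and a second site of 151 bp had 39.5 in the knockout list and 39.6 in the wild-type list. Rbm8a, the Y14 protein of the exon junction complex, had 1 site in each list, with a fold of 8.18 in the knockout list and 8.72 in the wild-type list. These sites did not overlap and lay 686 bp apart.

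Rbm20 represses exons of titin and other sarcomere genes, and its loss causes cardiomyopathy. It had 2 sites in the knockout list and 3 in the wild-type list. The shared site (chr19:53813248-53814340) had a fold of 6.94 in the knockout list (score 123) and of 9.94 in the wild-type list (score 1587). Further downstream the lists differed. The knockout list had a site of 640 bp at chr19:53851177-53851816, at a fold of 8.34 (score 765). The wild-type list had a site at chr19:53840979-53841058 at a fold of 9.87 (score 213), and one at chr19:53850102-53850188 at a fold of 17.7 (score 3100). The last lay 988 bp from the knockout site.

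Rbm24, a muscle splicing regulator needed for sarcomere assembly, had a wild-type site of 899 bp over its start (chr13:46418300-46419198), at a fold of 6.77 (score 439), and none in the knockout list. Rbm39, an SR-like protein that binds U2AF, had a knockout site of 195 bp (chr2:156172828-156173022, minus strand) at a fold of 23.4 (score 3100), and none in the wild-type list. Rbm14 was in the knockout list only, at a fold of 5.21 (score 65.0). Rbm43 was in the wild-type list only, at a fold of 6.77 (score 94.3). Rbm12b1 and Rbm12b2 were in the wild-type list only with folds of 5.52 and 5.76. They are near-identical neighbours on chromosome 4, so the assignment of reads to either is uncertain.

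Of the tissue-regulated splicing group, Mbnl2 and Celf3 had sites, in both lists. Mbnl2 drives adult splice forms. At its start (chr14:120275669-120275905) it had a fold of 16.5 in the knockout list and 16.6 in the wild-type list, with a score of 3100 in each. Its second site had a fold of 4.41 in the knockout list and 5.81 in the wild-type list. Celf3 had 1 site per list with a shared first base, 399 bp long in the knockout list and 1 bp long in the wild-type list. Their folds were 10.9 for the knockout and 11.4 for the wild type.

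Tia1, which promotes U1 recruitment to weak 5′ splice sites and forms stress granules, had the highest fold of all splicing factor sites in both lists. Its 1 site (chr6:86404219-86404522, plus strand, 304 bp) begins at a RefSeq start. It had a fold of 269 in the knockout list and 206 in the wild-type list, with a score of 3100 in each.

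**Figure D3:**
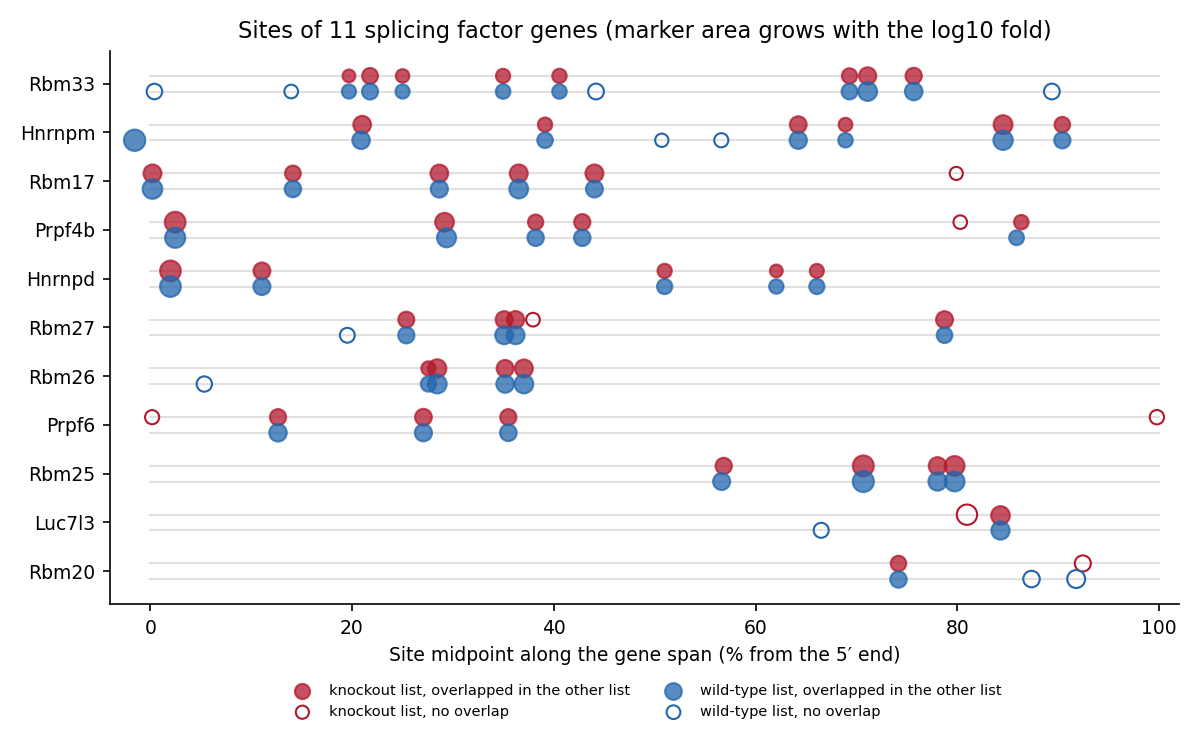
Midpoints of the sites along the gene span from its 5′ end (horizontal axis, per cent of the span, introns included) for 11 splicing factor genes; the upper line of each gene is the knockout list and the lower one the wild-type list. Filled markers overlap a site of the other list, open markers do not, and the marker area grows with the log10 of the fold; the 8 knockout sites of Rbm33 are all filled, whereas 4 of its 12 wild-type sites are open.

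The number of sites per gene was above that of all genes in both lists. Splicing factor genes with a site had a mean of 2.42 sites in the knockout list and 2.34 in the wild-type list, against 1.81 and 1.84 over all genes with a site. Genes with 3 or more sites made up 37.7% in the knockout list and 35.6% in the wild-type list, against 17.5% and 18.4%.

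Positions along the gene also differed from those of all sites. The gene span was divided into 5 equal parts from the 5′ end. In part 2 lay 24.4% (17.2 to 32.8) of the splicing factor sites of the knockout list and 22.1% (15.4 to 29.97) of those of the wild-type list. Over all sites these shares were 10% and 10.3%. In part 5, at the 3′ end, lay 21.3% (14.5 to 29.4) in the knockout list and 19.1% (12.9 to 26.7) in the wild-type list, against 34.8% and 35.7% of all sites. Part 1 held 24.4% in the knockout list and 28.7% in the wild-type list, near the 26.2% and 25.5% of all sites.

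Sites of 1 gene share that gene's structure, so the positions were also counted by gene. A site in part 2 was found in 18 of 52 splicing factor genes in the knockout list (34.6%) and 18 of 59 in the wild-type list (30.5%), against 14.7% and 15.5% of all genes. A site in part 5 was found in 34.6% (22.0 to 49.1) of splicing factor genes in the knockout list and 33.9% (22.1 to 47.4) in the wild-type list, against 48.5% and 50.1%. The knockout interval includes the value over all genes. Among genes with 1 or 2 sites, part 2 held 20% (9.05 to 35.6) of splicing factor sites in the knockout list and 15.6% (6.49 to 29.5) in the wild-type list, against 8.22% and 8.499% of all sites of such genes. The wild-type interval there includes the value over all genes. Whether these sites lie in coding sequence, untranslated regions or introns was not determined.

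**Figure D4:**
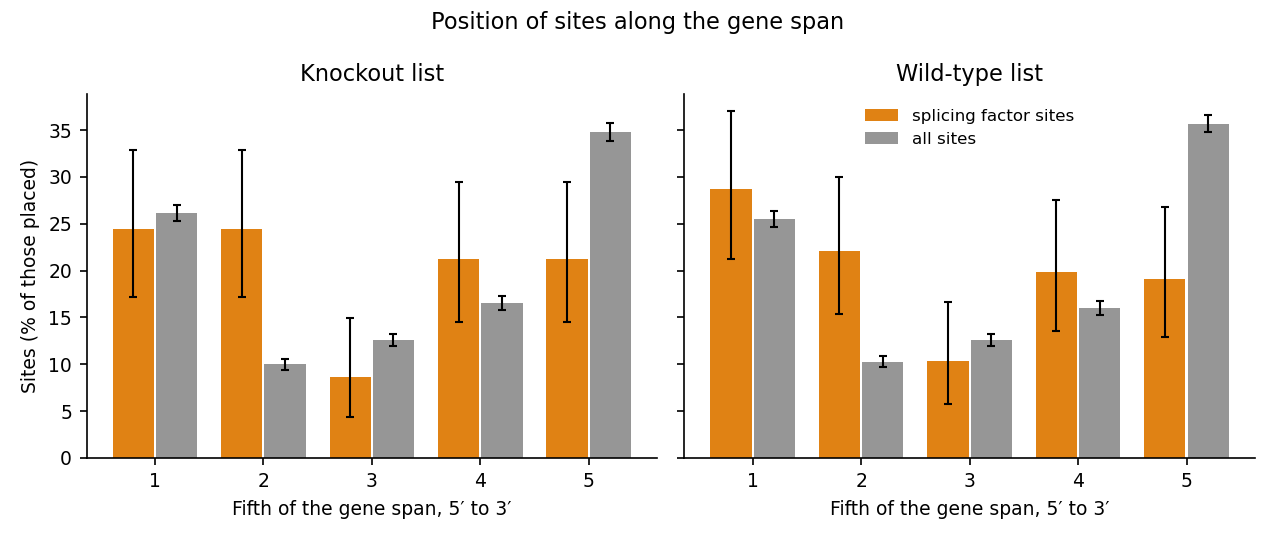
Share of sites in each of 5 equal parts of the gene span, from the 5′ end (part 1) to the 3′ end (part 5), in the knockout list (left) and the wild-type list (right), for splicing factor sites and for all sites; bars start at 0 and lines are exact 95% binomial intervals. Splicing factor sites reached 24.4% and 22.1% in part 2, where all sites stood at 10% and 10.3%, in the knockout and the wild-type list in that order.

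Splicing genes that the naming rule does not cover were listed with earlier results known and are described for comparison. Among SR-like proteins 10 of 11 had a site, 9 of them in both lists, and Scaf1 in the wild-type list only with a fold of 2.97. Acin1 had 6 sites in the knockout list and 5 in the wild-type list, with a highest fold of 38.7 in the knockout list and 48.6 in the wild-type list. Sites were found in 6 of 9 spliceosomal helicases, where Aqr was in the wild-type list only, in 4 of 5 minor spliceosome genes and in 3 of 4 SR protein kinases. The Sm proteins of the snRNP core ring and their U1 and U2 partners had a site in 2 of 11 genes, and the developmental regulators, such as Rbfox2 and Qk, in 5 of 14. Of 8 FET and paraspeckle genes 4 had a site, with Ewsr1 in the knockout list only at a fold of 7.15.

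Known targets of Rbm20 had a site in 8 of 10 genes, of which 7 were in both lists and Ldb3 in the wild-type list only, with a fold of 6.82. Ttn, which encodes titin, had 2 sites in each list, with a highest fold of 66.5 in the knockout list and 64.2 in the wild-type list. Trdn, which encodes triadin of the calcium release complex, had 22 sites in the knockout list and 23 in the wild-type list. Ryr2, the calcium release channel, had 5 in the knockout list and 3 in the wild-type list.

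As a check of the tissue, 3 of 9 heart muscle markers, Tnnt2, Ryr2 and Ttn, had sites in both lists. Of 6 genes listed as markers of other tissues, only Ckm had a site, 1 in the knockout list with a fold of 3.31. Ckm is a gene of striated muscle, which includes heart, so it does not mark another tissue. Sites show that an mRNA was bound, not how much of it there was, so this says little about the tissue.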

How the data were processed

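Per the labels' protocols, Trizol-extracted RNA was immunoprecipitated with a GenSeq kit and read as pairs of 150 bases. The labels name a directional NEBNext library kit but the series' design text a stranded KAPA kit. Which was used is unclear. Per the submitters' processing notes, cutadapt 1.9.3, HISAT2 2.0.4 and mm10 were used. Per the deposited tables, site names begin with MACS, a peak caller. The sources used here do not give its version, its settings or the filter to mRNA sites. Sites were called once per genotype from both libraries, so no value per library and no depth is known.

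Fold enrichment was deposited as a linear ratio from the authors' peak caller. The score, as deposited, is its p on a minus log10 scale times 10. The authors' false discovery rate is in percent. It was 100% at all 128 splicing factor sites of the knockout list and at 101 of 138 in the wild-type list. The lower rates in the wild-type list stood at sites with high scores, and none was below 83.3%. Strong, as used here, refers to score or fold and not to this rate.

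Starts in the tables count from 0 and are given here from 1. Sites were matched by overlap on the same strand, with strands from the deposited intervals, and placed on RefSeq gene spans (GRCm38.p6). Windows reach from 250 bases before to 50 after each start, and 107 of the 124 genes had one. Python 3.11.15, pandas 2.3.3, numpy 2.4.6, scipy 1.17.1 and matplotlib 3.10.9 were used, with exact (Clopper-Pearson) intervals at 95%. The overlap step was tested on simulated data, and the position step was not.

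Members, lists and tests were chosen with earlier results of these data known. Genes were named if found in 1 list, if among the first 4 of their group in both lists by number of sites and then fold, if holding 1 of the 5 largest folds of a list, if their site numbers differed by 2 or more, or if a known cardiac splicing regulator. The other genes described, such as Snrnp70, Snrnp35, Rbm8a, U2af2, Sf3a2, Sf3b2, Sf3b5, Hnrnpa0 and Hnrnpr, were chosen after their values were seen. Alternatives were a stricter score, lists of equal length, other overlap rules, current symbols and the 3′ end of a site for its position.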

Additional observations from a re-analysis of the deposited data

How the results depend on the processing

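The counts by list, the shares of matched sites, the shares in parts 2 and 5 of the gene span and the median folds gave 38 values under the alternatives, and none moved beyond its counting interval or by more than 1.5 times. These bounds are wide for sites that are mostly the same under each alternative. The wild-type-only count lay at its bound, 12 in the main lists and 8 at scores of 100 or more. With scores of 100 or more, 42 splicing factor genes were in both lists, 7 in the knockout list only and 8 in the wild-type list only, against 660 and 801 of all 5510 genes in 1 list only. In lists of 10388 sites each, the counts were 46, 7 and 11, against 858 and 850 of all 6577 genes in 1 list only. With an overlap of 50% of both sites, matched sites made up 81.2% in the knockout list and 76.1% in the wild-type list. Single genes were judged by a stricter rule, an unchanged number of sites. Of the 18 genes found in 1 list, 8 had no site left at a score of 100 or more, and 10 kept one. No paired analysis was possible because each genotype had 1 list, and for the same reason no library could be left out. Without read counts, neither the depth of a list nor a limit of detection could be set.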
